A study of Arabidopsis thaliana with 12 samples.

Results

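The guard cell wall and pectin genes described here are 8 Arabidopsis thaliana genes chosen by locus identifier: PME6 (AT1G23200), PME34 (AT3G49220), FOCL1 (AT2G16630), PGX1 (AT3G26610), PGX2 (AT1G78400), PGX3 (AT1G48100), PLL12 (AT5G04310) and EXPA1 (AT1G69530). The list was drawn up with the expression of these genes in the same libraries already known, so the values below are a description of the members and support nothing beyond them. Of the 8 members, 7 were among the 23071 genes analysed, all 7 passed the filter on low counts together with 22636 genes in all, and PGX2 was not analysed here.

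Polyadenylated RNA of whole seedlings was sequenced from 4 transgenic lines that differ in the MUTE protein they carry. MUTE is the basic helix-loop-helix (bHLH) transcription factor that commits a cell of the stomatal lineage to become the precursor of a guard cell pair. All 4 lines share the mute-3 mutation, and in all of them the allele is expressed from the MUTE promoter, which drives expression in cells of the stomatal lineage. Line 1, named MUTE, expresses the unaltered protein and is the reference. MUTEv5#2 and MUTEv5#5 (lines 2 and 5) carry the same R10W protein and were picked by the submitters for a moderate clustering of stomata and for a severe arrest of lineages, respectively. MUTEPPP#3 (line 3) carries H3P, E7P and R11P, with residues numbered as the submitters give them. Every group is 1 transgenic line, so the allele cannot be told apart from the insertion it sits in. Each line had 3 biological replicates, and each library came from a pool of 50 seedlings at 2 days post-germination, grown on 1% sucrose at 21 °C with 16 h of light and 8 h of dark.

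Library totals ran from 117868477 to 152600239 counts. Levels are given as CPM, counts per 1000000 of the normalised library total, and differences as log2 fold changes of the first line over the second with their standard error (SE). A gene is called when the p-value of edgeR's quasi-likelihood test, adjusted by Benjamini-Hochberg over all 22636 genes, was under 0.05. In the table no value was at 0 and the lowest was 1 in every library, so low levels may be raised by 1 count. MUTE transcripts were found in every line, at 5.32 to 6.93 CPM in MUTEPPP#3, 4.85 to 6.10 in MUTE, 8.26 to 12.9 in MUTEv5#2 and 14.4 to 24.5 in MUTEv5#5; counts per gene do not show which substitution a line carries, nor separate the transgene from the mute-3 allele. All 14 guard cell genes, 6 genes of the early stomatal lineage, 5 of root hairs and 5 of mesophyll photosynthesis used as cell type markers were detected. MUTEPPP#3 replicates 2 and 3 stood apart in their clock genes: the mean log2 CPM of 4 evening genes minus that of 3 morning genes was 3.06 and 5.01 there, and between -4.77 and -1.13 in the other 10 libraries. This difference is the clock index used below as a covariate. Its high values are all in MUTEPPP#3, so index and line largely cannot be told apart. A call of that line lost with the covariate does not show that the clock sets the difference.

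Pectin of the plant wall is built largely from homogalacturonan, a chain that is laid down with methyl ester groups. Pectin methylesterases remove those groups, after which the chain can be bound by calcium or cleaved by polygalacturonases and pectate lyases, while expansins loosen the contacts between cellulose and the other polymers. Guard cells bend and recover with each movement of the pore, and the state of their pectin is known to set how far the wall can yield.

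The sequences just upstream of PME6 and FOCL1 are shown because these were the members whose levels differed most between the lines, and MUTE belongs to the bHLH factors, which bind E-boxes. The 250 bases before the annotated start are given 5′ to 3′ from the RefSeq assembly TAIR10.1, with each match to the E-box letters CANNTG, which read the same on both strands, in capitals. PME6 spans chr1:8227133-8229661 on the plus strand in 2 exons and its upstream stretch is chr1:8226883-8227132; FOCL1 spans chr2:7209108-7211134 on the plus strand in 3 exons, with the stretch chr2:7208858-7209107.
PME6: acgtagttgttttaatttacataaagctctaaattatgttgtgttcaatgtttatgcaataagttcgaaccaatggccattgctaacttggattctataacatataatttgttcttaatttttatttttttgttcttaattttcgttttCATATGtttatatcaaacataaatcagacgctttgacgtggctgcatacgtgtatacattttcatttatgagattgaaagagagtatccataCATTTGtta
FOCL1: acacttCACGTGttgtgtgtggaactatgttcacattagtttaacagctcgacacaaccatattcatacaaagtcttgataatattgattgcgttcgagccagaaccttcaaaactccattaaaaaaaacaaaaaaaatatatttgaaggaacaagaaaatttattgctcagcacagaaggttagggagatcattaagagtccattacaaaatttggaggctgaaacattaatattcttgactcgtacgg
PME6 held 2 matches and FOCL1 held 1, which is also a CACGTG. Of 27443 promoters of this length, 55.3% held at least 1 CANNTG and 6.49% held a CACGTG. PGX2, PGX3 and EXPA1 held 1, 2 and 2 matches, PME34 and PGX1 held 1 each, and PLL12 held none. These matches describe letters only and carry no measurement of binding.

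The members covered a wide range of levels. Per kilobase of transcript, and averaged over the 4 lines, EXPA1 stood at 211 CPM, PME34 at 25.1, FOCL1 at 12.9, PGX3 at 4.41, PGX1 at 2.11, PLL12 at 1.62 and PME6 at 1.10. EXPA1 thus lay at the 98.4th percentile of the genes analysed, including those later removed by the filter, and PME6, the lowest member, at the 20.2nd. The order was the same per kilobase of coding sequence, which is much shorter than the transcript for PME34.

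**Figure D1:**
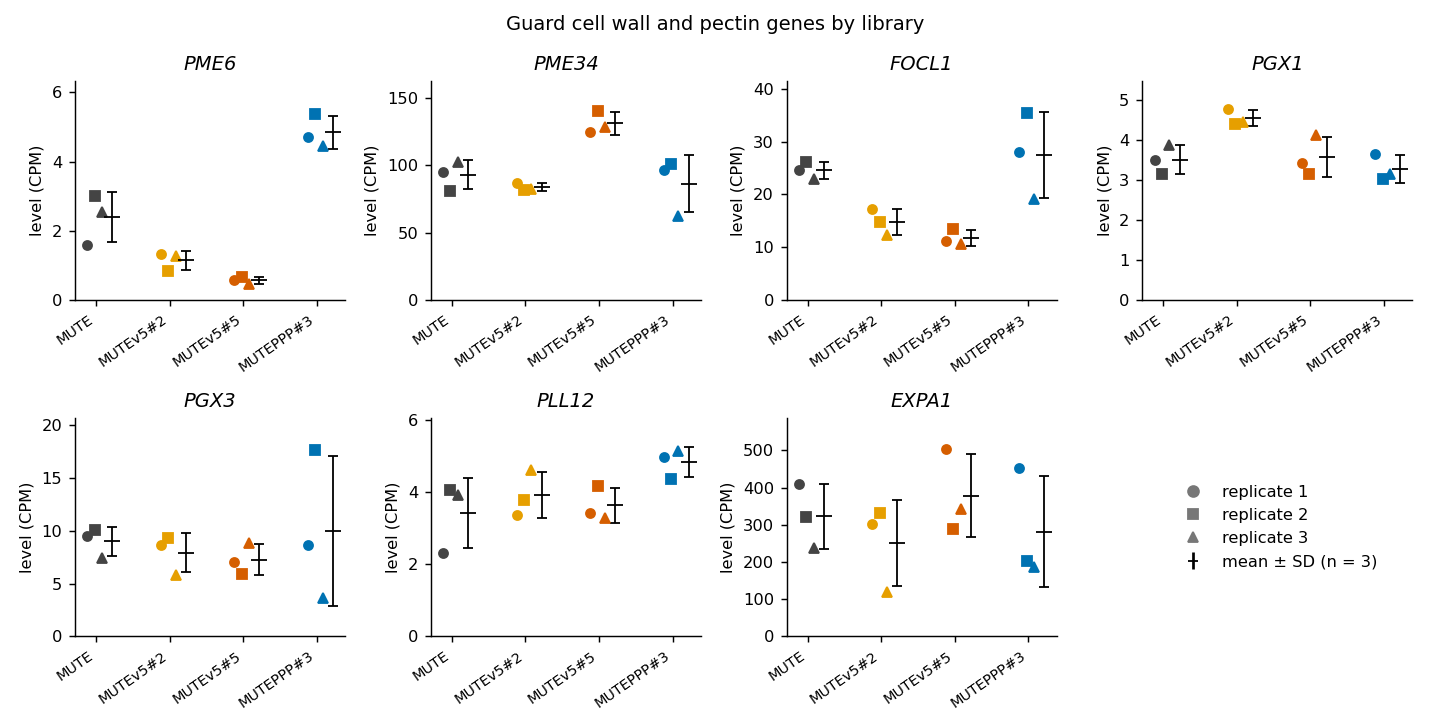
Level (CPM, linear axis from 0) of each of the 7 members in the 12 libraries, with symbols for the replicates and bars for the mean ± SD of 3 libraries per line. PME6 forms 4 separate steps, FOCL1 is low in both MUTEv5 lines, and the scatter of PGX3 and EXPA1 within a line is as wide as the differences between lines.

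PME6 encodes the pectin methylesterase of Arabidopsis guard cells whose loss leaves their walls rich in methylesterified pectin and narrows the range of stomatal movement. It was measured at 1.59, 3.01 and 2.54 CPM in MUTE replicates 1 to 3 (mean 2.38 ± 0.722, SD, n = 3). In MUTEv5#2 it stood at 1.33, 0.818 and 1.27 CPM (1.14 ± 0.279), and in MUTEv5#5 at 0.582, 0.657 and 0.457 (0.565 ± 0.101). All 3 libraries of each MUTEv5 line lay below the lowest MUTE library, and all those of MUTEv5#5 below all those of MUTEv5#2. In MUTEPPP#3 the level was 4.71, 5.38 and 4.44 CPM (4.84 ± 0.483), above every other library. The underlying counts were 60 to 90 per library in MUTEv5#5 and 690 to 746 in MUTEPPP#3, so counting error takes up more of the spread between replicates in MUTEv5#5. The lines therefore ranked MUTEPPP#3, MUTE, MUTEv5#2 and MUTEv5#5, without overlap between any 2 of them. Groups that did not overlap were common among all genes tested: 30.3% of them in MUTEv5#2 against MUTE, 20.6% in MUTEv5#5 against MUTE and 40.7% in MUTEPPP#3 against MUTE. Between the variant lines the share was 18.2% for MUTEv5#5 against MUTEv5#2, 27.2% for MUTEPPP#3 against MUTEv5#2 and 33.3% for MUTEPPP#3 against MUTEv5#5.

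Against MUTE, the log2 fold change of PME6 was -1.06 ± 0.256 (SE) in MUTEv5#2, with an adjusted p of 0.0421 by edgeR, and -2.07 ± 0.267 in MUTEv5#5, with an adjusted p of 0.00537. In MUTEPPP#3 it was 1.03 ± 0.252, with an adjusted p of 0.015. These 3 comparisons share the MUTE libraries. In bulk seedlings, fewer cells of a type and less RNA per cell cannot be told apart. The lower level in MUTEv5#2 is the least secure of the 3: its call was lost in 9 of the 12 fits that each left out 1 library. Those left out were MUTE replicate 2 or 3, any MUTEv5#2 replicate, MUTEv5#5 replicate 1 or 3, or MUTEPPP#3 replicate 2 or 3; the log2 fold change then lay between -1.19 and -0.86. The call was also lost with the replicate number as a block (-1.04, adjusted p = 0.0593), with limma-voom (adjusted p = 0.0555), with library totals as the only scaling (-0.93, adjusted p = 0.0522) and with only the 2 lines in the fit (adjusted p = 0.109). Leaving out MUTEPPP#3 replicate 2 also ended the call of the higher level in that line (0.94, adjusted p = 0.0563), and so did the clock index as a covariate (0.74, adjusted p = 0.197).

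Between the variant lines, PME6 was 8.56-fold higher in MUTEPPP#3 than in MUTEv5#5, a log2 fold change of 3.10 ± 0.274 (SE) with an adjusted p of 0.000775. This call was kept under all 22 alternative settings, where the log2 fold change ranged from 2.80 to 3.24. Against MUTEv5#2 the difference was 2.09 (SE 0.261, adjusted p = 0.00633), with an adjusted p of 0.07 once the clock index was a covariate. The lines with the same R10W protein differed by -1.01, MUTEv5#5 below MUTEv5#2 (SE 0.264, 95% interval -1.59 to -0.43). That difference was not called over all genes (adjusted p = 0.236), although it was by DESeq2 (adjusted p = 0.0274).

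PME34, a pectin methylesterase of Arabidopsis that has been linked to guard cell movement under heat, spans chr3:18249663-18253911 on the plus strand. It was measured at 95.3, 81.1 and 102 CPM in MUTE, and at 87.1, 81.4 and 82.4 CPM in MUTEv5#2. In MUTEv5#5 the values were 125, 141 and 128 CPM, and in MUTEPPP#3 96.4, 101 and 62.2. MUTEv5#5 was the only line of the 4 whose libraries all lay above those of every other line, and the remaining 3 lines overlapped. Its one call was the lower level in MUTEPPP#3 than in MUTEv5#5 (log2 fold change -0.60, SE 0.159, adjusted p = 0.0298). That call was lost without MUTEv5#5 replicate 1, 2 or 3 (-0.64, -0.52 and -0.59) and with the clock index as a covariate (-0.35, adjusted p = 0.455). Against MUTE, the higher level in MUTEv5#5 had a log2 fold change of 0.50 and an adjusted p of 0.158. Over MUTEv5#2 it was 0.65 and not called by edgeR either (adjusted p = 0.225). By mean level, PME6 was thus at its lowest in MUTEv5#5 and PME34 at its highest, though edgeR called the PME34 difference only against MUTEPPP#3.

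FOCL1 encodes a secreted proline-rich wall protein of Arabidopsis that is needed for the cuticular ledge over the stomatal pore to open. Its levels were 24.5, 26.1 and 23.0 CPM in MUTE (24.5 ± 1.57, SD, n = 3) and 27.9, 35.4 and 19.1 in MUTEPPP#3 (27.5 ± 8.13). In MUTEv5#2 they were 17.2, 14.7 and 12.3 CPM (14.7 ± 2.40), and in MUTEv5#5 11.1, 13.4 and 10.7 (11.7 ± 1.5). Both MUTEv5 lines lay below all libraries of MUTE and MUTEPPP#3 and overlapped each other, and MUTEPPP#3 spread around MUTE on both sides. FOCL1 was called lower in MUTEv5#5 than in MUTE, at a log2 fold change of -1.06 ± 0.200 (SE) and an adjusted p of 0.0387, and the difference of -0.74 in MUTEv5#2 missed the threshold (SE 0.199, adjusted p = 0.0579). The MUTEv5#5 call was lost in 8 of the 12 fits without 1 library, with any MUTE or MUTEv5#5 replicate or MUTEv5#2 replicate 1 or 2 left out, while the log2 fold change stayed between -1.18 and -1.0.

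Against the MUTEv5 lines, FOCL1 in MUTEPPP#3 was higher by 1.23 than in MUTEv5#5 (SE 0.201, adjusted p = 0.00455) and by 0.90 than in MUTEv5#2 (SE 0.200, adjusted p = 0.045). The first call held in all 12 fits without 1 library. The second was lost in 9 of those 12 fits, all but those without MUTE replicate 1 or MUTEPPP#3 replicate 1 or 3, at 0.68 to 1.02. With the clock index as a covariate neither was called, though the log2 fold changes were no smaller. They were 1.38 over MUTEv5#5 (adjusted p = 0.0504 by edgeR) and 1.03 over MUTEv5#2 (adjusted p = 0.174). The 3' end of FOCL1 overlaps TOC132 on the other strand, and use of the strand in counting is not given in the sources used here; TOC132 was called in none of the 6 comparisons.

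PGX1 and PGX3 are polygalacturonases known in Arabidopsis from cell expansion and, for PGX3, from stomatal development and guard cell dynamics. PGX1 (chr3:9776958-9780553, plus strand) was measured at 3.5, 3.16 and 3.88 CPM in MUTE and at 4.78, 4.41 and 4.45 in MUTEv5#2. In MUTEv5#5 it stood at 3.43, 3.15 and 4.13 CPM, and in MUTEPPP#3 at 3.66, 3.01 and 3.14. The 3 libraries of MUTEv5#2 lay above all others, and the other 3 lines overlapped. No difference was called: the log2 fold change of MUTEv5#2 over MUTE was 0.37 (adjusted p = 0.136, 95% interval 0.07 to 0.68), and that of MUTEPPP#3 over MUTEv5#2 was -0.47 (adjusted p = 0.0892).

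PGX3 (chr1:17766738-17769951, plus strand, overlapping AT1G07477 and ECT7 on the other strand) varied mostly among replicates. It was measured at 9.52, 10.04 and 7.45 CPM in MUTE, 8.66, 9.31 and 5.79 in MUTEv5#2, and 7.07, 5.87 and 8.81 in MUTEv5#5. MUTEPPP#3 held both its highest and its lowest library, with 8.61, 17.7 and 3.64 CPM, so all lines overlapped. Its 6 log2 fold changes lay between -0.31 and 0.46 and none was called, with adjusted p-values of at least 0.502. The 3 differences from MUTEPPP#3 changed sign without replicate 2 of that line, and were then -0.56 over MUTE, -0.37 over MUTEv5#2 and -0.24 over MUTEv5#5.

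PLL12, a pectate lyase-like protein required for normal guard cell dynamics in Arabidopsis, spans chr5:1202967-1207946 on the minus strand. It stood at 4.98, 4.37 and 5.16 CPM in MUTEPPP#3 and at 2.3, 4.06 and 3.91 in MUTE. The MUTEv5#2 libraries had 3.36, 3.78 and 4.63 CPM and those of MUTEv5#5 3.43, 4.18 and 3.29. The MUTEPPP#3 libraries lay above all those of MUTE and MUTEv5#5 and overlapped those of MUTEv5#2. No comparison was called, and the log2 fold change of MUTEPPP#3 over MUTE was 0.50 ± 0.211 (SE), with an adjusted p of 0.108. With library totals as the only scaling this became 0.67 (adjusted p = 0.0284); that scaling moved the median of all genes in this comparison by 0.166, which is part of that value.

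EXPA1 encodes an alpha-expansin that in Arabidopsis has been tied to the speed of stomatal opening, and spans chr1:26141726-26143538 on the plus strand. Its levels were 410, 321 and 237 CPM in MUTE and 454, 204 and 187 in MUTEPPP#3. MUTEv5#2 had 303, 331 and 119 CPM, and MUTEv5#5 had 503, 289 and 343. All lines overlapped. Replicate 1 was the highest library in MUTE, MUTEv5#5 and MUTEPPP#3. None of the 6 log2 fold changes, which lay between -0.43 and 0.59, was called, and their 95% intervals reached from -1.36 to 1.53 on the log2 scale, each of them including a 2-fold difference in 1 direction.

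**Figure D2:**
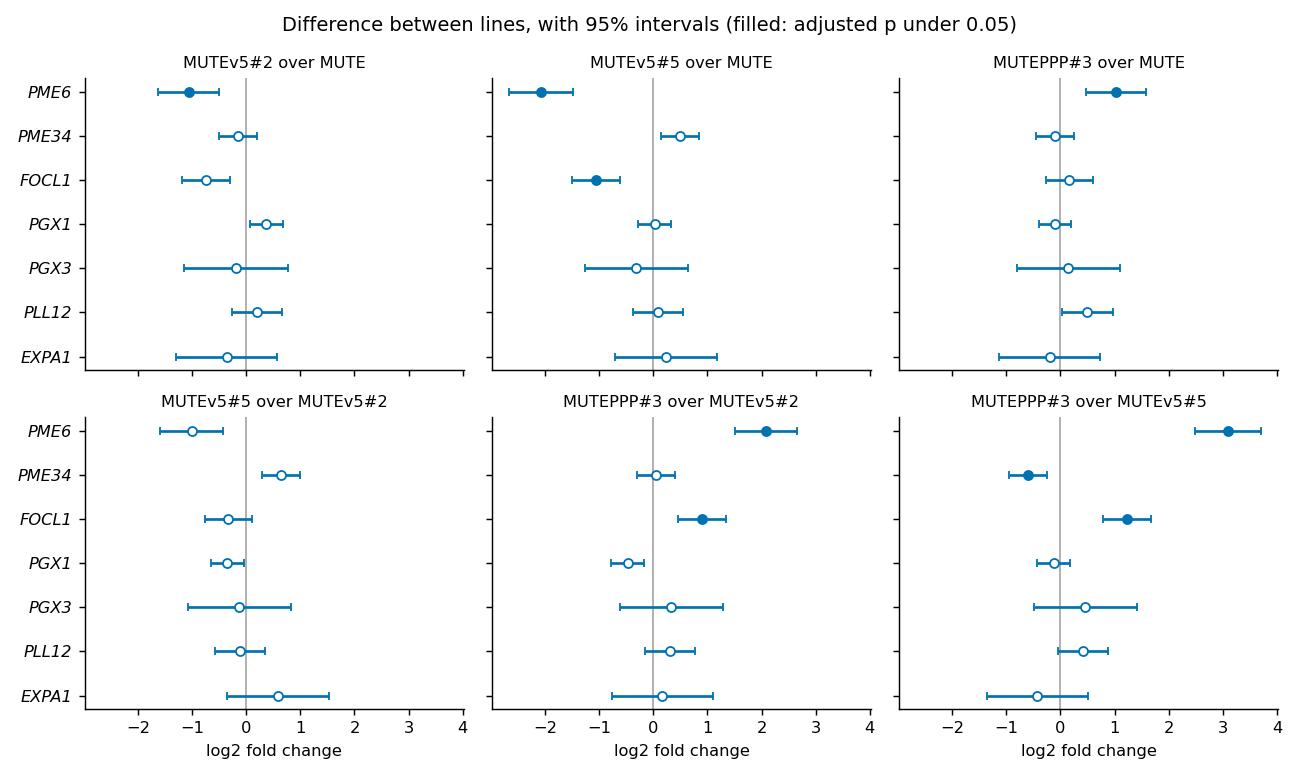
Log2 fold change of each member in the 6 pairwise comparisons of lines, with 95% intervals from the fit across all genes; filled points have an adjusted p under 0.05. PME6 is on opposite sides of 0 in the MUTEv5 lines and MUTEPPP#3 against MUTE, FOCL1 is called in 3 comparisons, PME34 in 1, and PGX1, PGX3, PLL12 and EXPA1 in none.

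Counted over the list, 1 of the 7 members was called in MUTEv5#2 against MUTE, and it was lower, where 5.04% of all genes were called and 3.55% were lower. In MUTEv5#5 against MUTE it was 2, both lower, beside 1.04% of all genes called and 0.725% lower. In MUTEPPP#3 against MUTE 1 was called, higher, beside 24.6% of all genes called and 10.7% higher. The median log2 fold change of the 7 was -0.19, 0.03 and 0.15 in these comparisons, while that of all genes was within 0.01 of 0.

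None of the 7 was called between MUTEv5#5 and MUTEv5#2 by edgeR, where 0.0663% of all genes were. In that comparison PME6, PME34 and PGX1, 3 of the 7, had an unadjusted p under 0.05, beside 10.8% of all genes. DESeq2 called PME6 and PME34, beside 1.31% of the genes to which it gave an adjusted p. MUTEPPP#3 against MUTEv5#2 gave 2 higher members beside 2.47% of all genes called and 1.06% higher. Against MUTEv5#5, MUTEPPP#3 gave 2 higher and 1 lower beside 15.7% of all genes called, 6.32% higher and 9.38% lower. These shares are printed to place the counts; since the members were picked on the same contrasts, nothing is read from them.

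Guard cell genes were lower together with PME6 and FOCL1 in both MUTEv5 lines, and in MUTEPPP#3, where PME6 was higher than in MUTE, their sum was lower. The summed level of the 14 guard cell markers was 1170 to 1319 CPM in MUTEPPP#3, 1384 to 1595 in MUTE, 608 to 686 in MUTEv5#2 and 454 to 631 in MUTEv5#5. Of the 14, 10 were called lower in MUTEv5#2 against MUTE, beside 3.55% of all genes, and 9 in MUTEv5#5, beside 0.725%. The medians over the list were -0.89 and -1.0. The marker lists were drawn up with earlier results of these data known, so the counts of calls are a description only. Of the 10 calls, 6 were kept without MUTE replicate 1 or 2, 5 without MUTEv5#2 replicate 1 or 2, and 6 with only the 2 lines compared in the fit. Of the 9, 5 were kept without MUTE replicate 2 or MUTEv5#5 replicate 3, and 4 with only the 2 lines compared. The call of SLAC1 in MUTEv5#2 held in 1 of the 12 fits without 1 library and that of HT1, a kinase of guard cell CO2 signalling, in MUTEv5#5 in 3, whereas TGG1, ALMT12 and AT1G22690 held in all 12 in both lines. Among them the anion channel SLAC1 fell by 1.44 in MUTEv5#5 and AT1G22690 (GC1), a gene known for guard cell specific expression, by 2.11 in MUTEv5#2 and 2.18 in MUTEv5#5. SCAP1, the Dof factor that in Arabidopsis promotes guard cell wall genes, was at 4.84 ± 0.593 CPM in MUTEPPP#3, 5.09 ± 0.739 in MUTE, 2.74 ± 0.250 in MUTEv5#2 and 2.45 ± 0.530 in MUTEv5#5 (SD, n = 3). In MUTEPPP#3 against MUTE, 24.6% of all genes were called. Of the 14, 1 rose there (SLAC1, by 0.51) and 3 fell (ALMT12, OST1 and AT1G22690, by 0.64, 0.57 and 0.44), with a median of -0.29. Nothing particular to guard cell genes is read from that count of calls. These calls held in 7, 10, 12 and 6 of the 12 fits without 1 library, in that order, and in none with the clock index as a covariate. Early stomatal lineage markers summed to 52.1 to 56.7 CPM in MUTEPPP#3, 51.5 to 52.2 in MUTE, 70.1 to 86.3 in MUTEv5#2 and 87.8 to 103 in MUTEv5#5. These sums hide 1 gene that went the other way. Of the 6 markers, 5 were called higher in each MUTEv5 line against MUTE. Of all 22636 genes, 336 were called higher in MUTEv5#2 and 71 in MUTEv5#5. SDD1 was called lower, by 1.05 in MUTEv5#2 and 1.80 in MUTEv5#5. In MUTEPPP#3 against MUTE, 1 of the 6 was called, and it was higher, beside 10.7% of all genes called higher. Root hair markers summed to 49.7 to 77.1 CPM over the first 3 lines and to 74.3 to 85.8 in MUTEPPP#3, and mesophyll markers to 62186 to 63920 in MUTE and to 47449 to 59259 in the other lines. What part any of these has in the member values was not tested.

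Set against the guard cell genes of the same library, PME6 and FOCL1 parted. The log2 CPM of PME6 minus the mean log2 CPM of the 14 markers was -3.74, -2.77 and -2.82 in MUTE, and -2.98, -3.61 and -2.99 in MUTEv5#2, which overlapped. It was -4.14, -3.76 and -4.17 in MUTEv5#5, below all other libraries, and -1.90, -1.69 and -1.87 in MUTEPPP#3, above all of them. The margin in MUTEv5#5 was narrow, with replicate 2 at -3.76 beside MUTE replicate 1 at -3.74. For FOCL1 the same difference was 0.64 ± 0.40 in MUTEPPP#3, 0.30 ± 0.09 in MUTE, 0.50 ± 0.21 in MUTEv5#2 and 0.33 ± 0.24 in MUTEv5#5 (SD, n = 3), and no line lay apart from all others. Against the mean of these 14 genes, PME6 was thus high in MUTEPPP#3 and, by that narrow margin, lowest in MUTEv5#5, while FOCL1 kept within the spread of the libraries. How many of all genes part in this way was not counted. The 14 are not alike: over MUTE, their log2 fold changes ran from -2.18 to -0.37 in MUTEv5#5, where PME6 had -2.07. In MUTEPPP#3 they ran from -0.64 to 0.51, where PME6 had 1.03. The place of PME6 in MUTEv5#5 thus depends on which genes are averaged. What part the number of guard cells has was not tested.

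**Figure D3:**
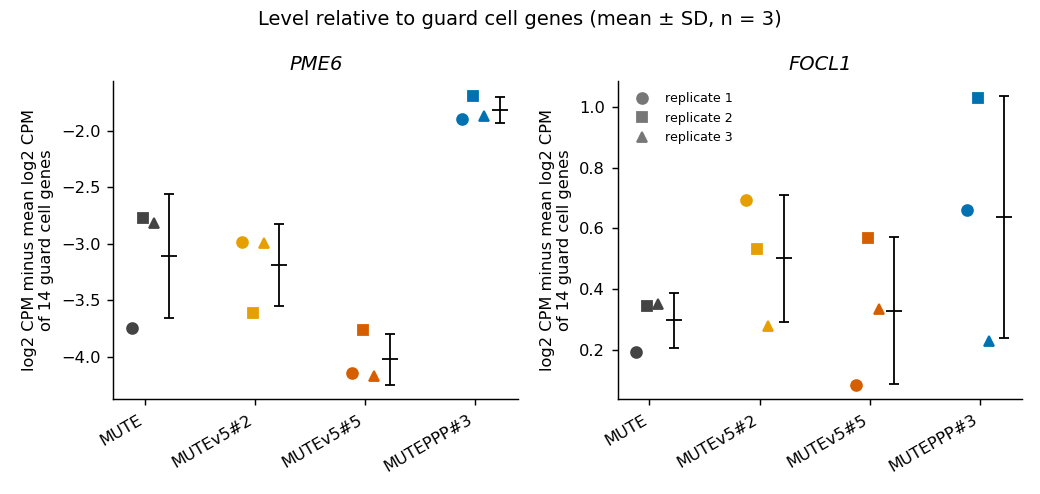
Log2 CPM of PME6 (left) and FOCL1 (right) minus the mean log2 CPM of 14 guard cell genes in the same library, by line, with mean ± SD of 3 libraries. PME6 lies between -1.90 and -1.69 in MUTEPPP#3 and between -4.17 and -3.76 in MUTEv5#5, while FOCL1 overlaps between the lines; the vertical axes differ in scale.

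The 5 genes whose profile over the 12 libraries was most like that of PME6 were WRKY49 (AT5G43290), SLAC1 (AT1G12480), CYP96A4 (AT5G52320), AT1G21540 and AT3G51760. Likeness was the root mean square difference between log2 CPM profiles centred on their own means, among 19177 genes of at least 1 CPM on average. It was 0.53 for WRKY49, a WRKY family factor, 0.55 for SLAC1, 0.57 for the cytochrome P450 gene CYP96A4, 0.57 for AT1G21540, annotated as an AMP-dependent synthetase and ligase, and 0.60 for AT3G51760, of unknown function. The median gene had a difference of 1.20, and PME6 itself has a spread of 1.18 around its mean. FAMA, the bHLH factor of the last guard cell step, ranked 6th and FOCL1 29th (0.74). The other members ranked from 2010th (PLL12) to 17658th (EXPA1). SLAC1 stood at 0.987 ± 0.109 CPM in MUTEv5#5, 1.80 ± 0.243 in MUTEv5#2, 2.69 ± 0.287 in MUTE and 3.81 ± 0.132 in MUTEPPP#3 (SD, n = 3), the same order of lines as PME6. As SLAC1 was picked here for its likeness to PME6, the shared order is no further result. When the profiles were reduced to the 4 line means, only CYP96A4 was again among the nearest 5, so the exact names depend on the measure.

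**Figure D4:**
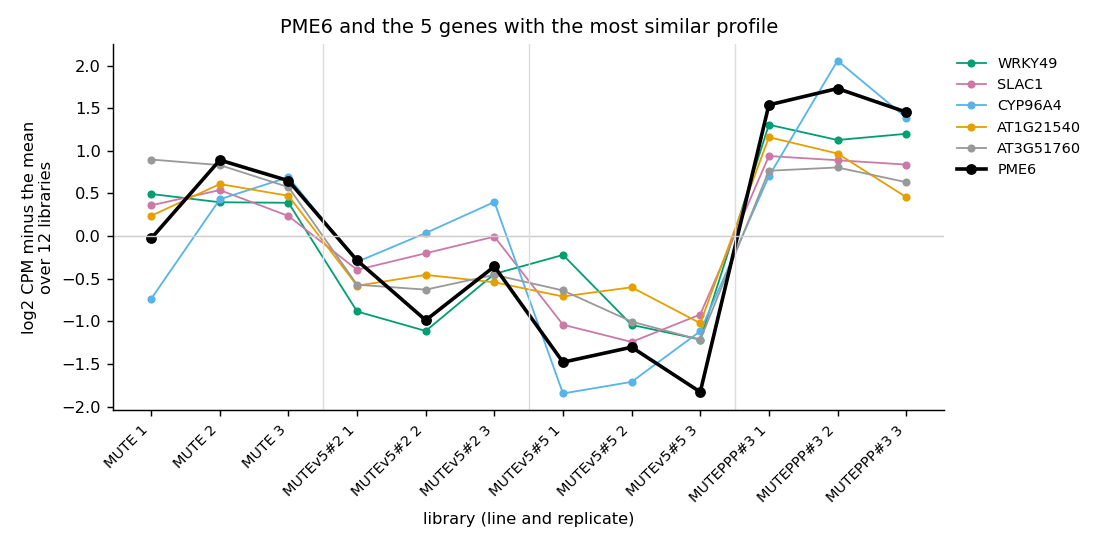
Log2 CPM minus the mean over the 12 libraries for PME6 (black) and the 5 genes with the smallest difference from its profile, by line and replicate. PME6 and CYP96A4 cover a wider range than the other 4 genes.

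Wall genes outside the 8 were looked at through 7 lists of related enzymes with 128 genes, of which 108 were tested. Over all lists 6 were called in MUTEv5#2 against MUTE, 1 in MUTEv5#5 and 30 in MUTEPPP#3, beside the 5.04%, 1.04% and 24.6% of all genes given above. None of the 7 calls of the MUTEv5 lines held in all 12 fits without 1 library. Of the 30 in MUTEPPP#3, 8 did, and 6 held with the clock index as a covariate: AT3G16850, AT4G13710, EXPA15, EXPA16, GAUT14 and XTH22. MUTEPPP#3 over MUTEv5#5 had 23 calls over all lists, beside 15.7% of all genes called. Of the 23, 6 held in all 12 fits without 1 library and 1, EXPA16, with the clock index.

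Among other pectin methylesterases, 19 of 24 listed were tested: 1 rose in MUTEv5#2 against MUTE, AT1G11580 (PME18, by 0.43), and none was called in MUTEv5#5, with list medians of 0.00 and 0.04. In MUTEPPP#3 against MUTE, 4 rose and 2 fell around a median of -0.23, so the median and the count of calls differ in sign. PME3 rose by 0.78, PME12 by 1.06, AT1G11580 by 0.26 and PME31 by 0.34, whereas PME2 fell by 0.51 and AT5G19730 by 0.83. Among these 6, the call of AT5G19730 held in all 12 fits without 1 library, and the others held in 5 (PME31) to 10 (PME3). Of the methylesterase inhibitors, proteins that block these enzymes, 7 of 11 were tested and 1 rose, AT3G47380. It was higher in MUTEPPP#3 by 1.93 over MUTE (SE 0.448, adjusted p = 0.0117) and by 2.37 over MUTEv5#5 (SE 0.456, adjusted p = 0.00872), each in all 12 fits, and neither call held with the clock index.

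Of 20 polygalacturonases tested from 25 listed, 1 rose and 6 fell in MUTEPPP#3 against MUTE (median -0.08), and none rose and 6 fell against MUTEv5#5 (median 0.05). AT1G60590 fell by 2.58 against MUTE (SE 0.448, adjusted p = 0.00339) and AT1G10640 by 1.87 (SE 0.300, adjusted p = 0.00244). These and AT3G16850, which fell by 0.56 (adjusted p = 0.00225), held in all 12 fits without 1 library; AT3G42950, which rose by 0.27, held in 7. In MUTEv5#2 against MUTE, AT2G43870 rose by 0.89 and AT3G42950 by 0.32, and AT1G60590 fell by 1.70, in 4, 3 and 2 of the 12 fits. AT2G43870 also rose in MUTEv5#5, by 1.13 (adjusted p = 0.042, in 3 of the 12). The 17 of 21 pectate lyases tested gave no call in the MUTEv5 lines against MUTE. In MUTEPPP#3 over MUTE 4 rose and 2 fell (median 0.05). AT4G13710 rose by 0.62 in all 12 fits, AT4G13210 by 0.68 in 9 and AT3G09540 by 1.17 in 10, while AT1G67750 fell by 0.82 in 9 and AT4G24780 by 0.49 in 4.

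Among 22 of 24 other expansins, EXPA6 fell by 0.58 in MUTEv5#2 (in 6 of the 12 fits) and none was called in MUTEv5#5 against MUTE, while 3 rose and 3 fell in MUTEPPP#3 (median 0.16). EXPA16 rose there by 1.34 (SE 0.234, adjusted p = 0.0034) and EXPA6 fell by 0.57 (SE 0.122, adjusted p = 0.00792), both in all 12 fits. EXPA15 rose by 0.76 and EXPA18, a root hair expansin, by 0.59, and EXPB1 and EXPB3 fell by 0.60 and 0.58, each in 8 or 9 of the 12. Of 13 genes of homogalacturonan synthesis, GAUT14, a galacturonosyltransferase, rose by 0.39 in MUTEv5#2 and by 0.27 in MUTEPPP#3 against MUTE (in 5 and 3 of the 12 fits), and none was called in MUTEv5#5. GAE1, an epimerase that makes the sugar nucleotide for the chain, fell in MUTEPPP#3 by 0.66 over MUTE (in 8) and by 0.90 over MUTEv5#5 (adjusted p = 0.00984, in all 12), and neither call held with the clock index. Of 10 cellulose and xyloglucan genes, the endoglucanase KOR1 and the xyloglucan enzyme XTH22 fell in MUTEPPP#3 against MUTE by 0.29 and 1.93, in 7 and 4 of the 12 fits, and none was called in either MUTEv5 line.

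**Figure D5:**
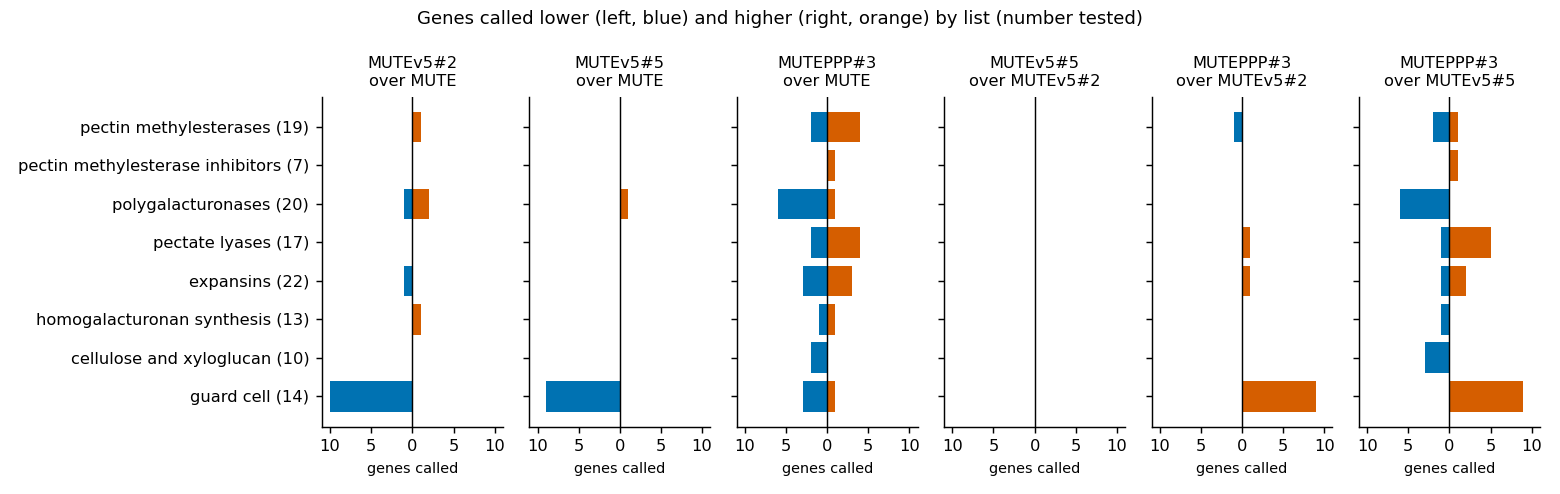
Number of genes called lower (left, blue) and higher (right, orange) in each of 7 lists of other wall genes and in the guard cell list, for the 6 comparisons, with the number tested in parentheses. In the MUTEv5 lines against MUTE the guard cell list has 10 and 9 lower genes, of which as few as 5 were kept without 1 library, and the wall lists have at most 3 calls each.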

How the data were processed

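Per the file headers, each deposited value is a read count, and the authors' table holds whole numbers in each of the 12 libraries for the genes it lists. The wall genes listed here but not tested were not among the genes analysed, so the filter on low counts did not remove them. The submitters' processing notes name TAIR10 and the tools StringTie 2.1.3b, HISAT2 2.1.0, Trimmomatic 0.38, Bowtie2 2.3.4.1, DESeq2 and FastQC. Their roles, the strand setting and the reason for a lowest value of 1 are not stated in the labels. Entries that name no gene (27 of 23098, with no more than 0.000596% of a library's counts) were dropped.

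All 12 libraries entered 1 fit of 4 line means with edgeR 4.0.16 (R 4.3.3), with TMM scaling and filterByExpr, which removed 435 genes, and all 6 comparisons were tested. DESeq2 1.42.0, voom of limma 3.58.1, RLE scaling, library totals, other filters, only the lines compared, a replicate block, the clock index as a covariate and leaving out each library were tried as alternatives, and so was subtracting 1 from every value, which was chosen after seeing the data. The fit was also run on counts simulated from its own estimates with known changes planted. Those counts held no clock or replicate structure, so that run cannot speak to either. CPM use TMM-scaled totals, log2 CPM a prior count of 2, and SDs run over 3 libraries; sequencing depth leaves mainly the spread between pools of seedlings.

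Members and gene lists were chosen with earlier results of these data known. Named genes are MUTE, the members, up to 3 genes called in each direction per wall list and comparison, called guard cell genes, SCAP1 and the 5 genes most like PME6; the text gives those of the comparisons it describes. Coordinates and sequences are from RefSeq TAIR10.1; gene identifiers, not coordinates, link the counts to it.

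The labels number the replicates 1 to 3 in each line but tie no number to a shared day or batch. Deviations of same-numbered libraries from their line means correlated across genes at 0.574, 0.414 and 0.323 in MUTEv5#5 against MUTE, so the numbers were taken to pair these lines; with the replicate as a block, PME6 and FOCL1 were again the members called there. In the other comparisons at least 1 of the 3 correlations was below 0.1.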

Additional observations from a re-analysis of the deposited data

How the results depend on the processing

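Each of 42 member differences was computed under 22 alternatives: of 924 values, 843 kept their direction and side of the threshold, 44 kept the direction but were no longer called, 9 became called and 28 changed sign. Members called, of 7, were as follows. MUTEv5#2 over MUTE had 1, and 2 by DESeq2 and 0 with limma-voom, with library totals as the only scaling or with only the 2 groups compared. MUTEv5#5 over MUTE had 2, and 1 with library totals or only the 2 groups compared. MUTEPPP#3 over MUTE had 1, and 2 with library totals and 0 with the clock index. MUTEv5#5 over MUTEv5#2 had 0, and 2 by DESeq2. MUTEPPP#3 over MUTEv5#2 had 2, and 3 by DESeq2, which added PGX1 as lower (adjusted p = 0.0181). It had 1 with limma-voom or only the 2 groups compared and 0 with the clock index. MUTEPPP#3 over MUTEv5#5 had 3, and 2 with only the 2 groups compared and 1 with the clock index. Leaving out 1 library gave 0 to 1 for MUTEv5#2 over MUTE, 1 to 2 for MUTEv5#5 over MUTE, 0 to 1 for MUTEPPP#3 over MUTE and 1 to 3 for MUTEPPP#3 over MUTEv5#2. For MUTEPPP#3 over MUTEv5#5 it gave 2 to 3, with 2 when any MUTEv5#5 replicate was left out. The cause was not tested.

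Every sign change was of a difference that was not called. For MUTEPPP#3 over MUTE, PGX3 was -0.153 with limma-voom. Library totals gave 0.0573 for PME34 and 0.0654 for PGX1, and the clock index gave 0.155 for PME34, 0.105 for PGX1 and 0.973 for EXPA1. For MUTEPPP#3 over MUTEv5#5, the clock index gave 0.0804 for PGX1 and 0.749 for EXPA1. Leaving out 1 library gave ranges across 0. For MUTEv5#2 over MUTE, PLL12 ran from -0.0191 to 0.339. For MUTEv5#5 over MUTE, PGX1 ran from -0.0958 to 0.101 (-0.0512 without MUTE replicate 2), PLL12 from -0.134 to 0.224 (-0.0325 without MUTEv5#5 replicate 2) and EXPA1 from -0.0307 to 0.439. For MUTEPPP#3 over MUTE, PME34 ran from -0.229 to 0.0842, FOCL1 from -0.0604 to 0.367, PGX3 from -0.555 to 0.544 and EXPA1 from -0.724 to 0.0386 (0.0269 without MUTEPPP#3 replicate 3). For MUTEv5#5 over MUTEv5#2, PGX3 ran from -0.31 to 0.00466 and PLL12 from -0.23 to 0.0251. For MUTEPPP#3 over MUTEv5#2, PME34 ran from -0.0767 to 0.237 (-0.0387 without MUTEPPP#3 replicate 1), PGX3 from -0.37 to 0.73 and EXPA1 from -0.362 to 0.415 (-0.171 without MUTEv5#2 replicate 3). For MUTEPPP#3 over MUTEv5#5, PGX1 ran from -0.214 to 0.0163 and PGX3 from -0.242 to 0.857.

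With only the 2 groups compared, PME6 in MUTEv5#5 over MUTE was -2.06 with an adjusted p of 0.0894. With the replicate block, PME6 in MUTEv5#2 over MUTE was -1.04 (adjusted p = 0.0593) and FOCL1 became called there (-0.74, adjusted p = 0.0288); no other member call changed under the block, and 9 of the 12 libraries correlated best with one of their own number, a hint from the data and not from the design. Over all genes, the calls were 1140, 235, 5577, 15, 558 and 3553 in the order used above. Other settings gave 171 to 2661, 42 to 1156, 2301 to 6952, 14 to 290, 35 to 2110 and 392 to 5120, the highest always by DESeq2. Leaving out 1 library gave 78 to 1399, 59 to 274, 2995 to 5666, 3 to 35, 40 to 1904 and 1061 to 4423. With library totals the median of all genes moved by 0.126 in MUTEv5#2 and by 0.166 in MUTEPPP#3 over MUTE. The higher and lower genes became 1001 and 400 in the first, from 336 and 804, and 4789 and 1862 in the second, from 2428 and 3149. They became 63 and 66 in MUTEv5#5 over MUTE, from 71 and 164, and 2004 and 1445 in MUTEPPP#3 over MUTEv5#5, from 1430 and 2123.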
